A study of Arabis alpina with 12 samples.

Results

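Genes of Arabis alpina that carried H3K27me1 and DNA methylation (5mC) and neither H3K4me3 nor H3K27me3 are described here. The span of a listed gene, from its first to its last base, had to hold 200 bp or more of H3K27me1 domains and 200 bp or more of 5mC domains, and under 200 bp of each of the other marks. This gave 245 genes, 0.994% of the 24657 genes in the mRNA table. Of these, 10 lay side by side in 1 stretch of chromosome 2 (2339401 to 2353500), which was set apart because its mRNA coverage was high, and 235 lay elsewhere. The ends of that stretch are those of 1 5mC domain, so unbroken 5mC over it is part of how it was set. The overlaps chose the genes, so cover by the marks is given as a description throughout, as is the mRNA coverage of the chromosome 2 cluster.

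H3K27me1 is monomethylation of lysine 27 of histone H3. In Arabidopsis it is laid down by the related enzymes ATXR5 and ATXR6 and is concentrated in constitutive heterochromatin. Cytosine methylation in plants is kept up by maintenance methyltransferases and by small RNA pathways, and it covers most transposons. It can also lie in the body of transcribed genes, where it is mostly found without heterochromatic histone marks. H3K4me3 marks the start of transcribed genes and H3K27me3 is the Polycomb mark of silent developmental genes, and neither was called over the genes described here beyond the limit above.

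All libraries came from young leaves of accession Pajares, grown in soil at 22.5 °C in days of 16 h light and 8 h dark. There was no treatment and no second genotype. Chromatin immunoprecipitation with antibodies to H3K4me3, H3K27me3 and H3K27me1 had 2 libraries each beside 1 input library. Immunoprecipitation of methylated DNA had 2 libraries and 2 inputs, and mRNA had 1 library. The domains of a mark come as 1 list, with no separate values for its 2 libraries, so the spread between replicates is unknown and genes do not stand in for it. No difference was tested, and intervals are exact binomial 95% intervals that cover counting error only. mRNA coverage is the deposited value per gene, by its name the read coverage of its exons. It is never below 1, and its depth and scaling are unknown. In a whole leaf, fewer cells with a transcript and less transcript per cell cannot be told apart. The files pair no identifier with a gene name or function. The tissue could therefore not be set against marker genes, and what these genes encode is not given. Coordinates are on the authors' assembly, counted from 1.

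Of the 10 genes on chromosome 2, 7 had an mRNA coverage above 100, and all 10 lay wholly inside domains of both marks. Each had 100% of its span inside H3K27me1 and inside 5mC, and 0 bp inside H3K4me3 or H3K27me3. In order of position, Aa_G288900 (2339827 to 2340717) had a coverage of 206. Aa_G288910 (2340773 to 2341287), the shortest at 515 bp, had 35.7. Aa_G288920 (2341335 to 2342577) had 431 and Aa_G288930 (2342633 to 2343737) had 465, the highest of all 245 genes. These first genes thus differed widely among themselves within 4 kb. Aa_G288940 (2343823 to 2345387) and Aa_G288950 (2343832 to 2345416) had the lowest coverage of the cluster, 9.10 and 9.41. Their spans overlap over 1556 bp, so reads from the 2 genes cannot be told apart without the strand, and their near-equal values may rest on the same reads. After them came the longest stretch between genes, 3116 bp. On its far side Aa_G288960 (2348533 to 2349137) had 129, Aa_G288970 (2349232 to 2350256) had 436, Aa_G288980 (2350333 to 2351367) had 263 and Aa_G288990 (2351423 to 2353447), the longest at 2025 bp, had 259.

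All 10 cluster genes were above 5.77, the median of all listed genes, which 50% of listed genes exceed. Coverage above 100 was reached by 7 of them, against 2.5% of all listed genes. Aa_G288930 ranked 101 among the 24657. The median of the cluster was 232, and the highest value was 51.1 times the lowest. Of the 828 listed genes with H3K27me1 and 5mC, whatever else they carried, 9 had a coverage above 100, and 7 of those were in the cluster. The 10 genes held 75.2% of the coverage summed over all 245. Since the cluster was picked for its coverage, these shares describe it and support nothing further.

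**Figure D1:**
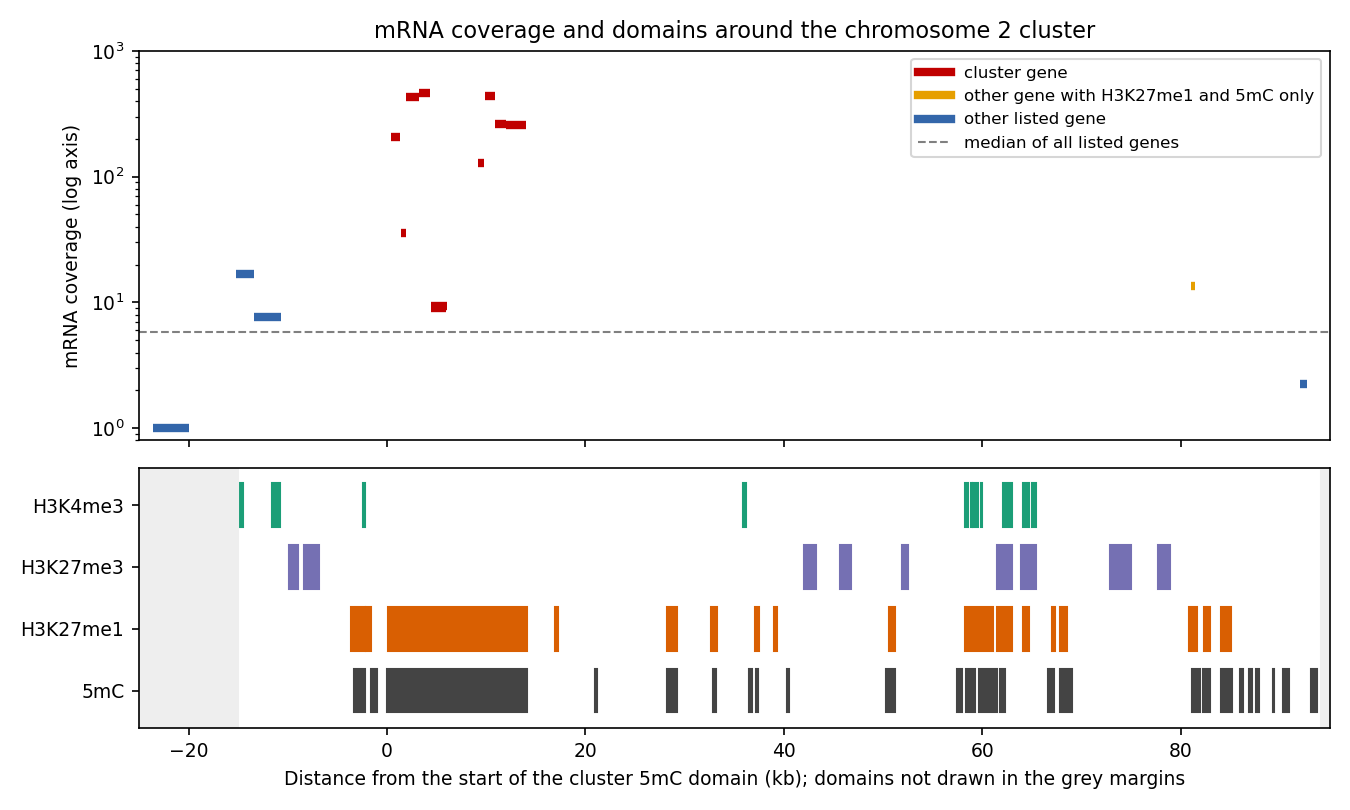
The upper panel plots the mRNA coverage of each listed gene (log axis) as a bar over its span, against distance in kb from the start of the cluster 5mC domain, and the lower panel draws the domains of the 4 marks. The 10 cluster genes sit between 9.10 and 465 over 1 unbroken block of H3K27me1 and 5mC, where neither H3K4me3 nor H3K27me3 has a domain.

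The genes of the cluster were short and closely packed. Their spans ran from 515 to 2025 bp with a median of 1070 bp, against 2091 bp for all listed genes. Between neighbours, 7 intervals were under 100 bp, the shortest 47 bp, and gene spans made up 71.2% of the 5mC domain. Outside the cluster listed genes were sparse. The nearest before it was Aa_G592990 (2326037 to 2328681), 11145 bp away, with H3K4me3 and a coverage of 7.70. The nearest after it was Aa_G400860 (2420428 to 2420872), 66980 bp away, with a coverage of 13.6. Aa_G400860 also carried H3K27me1 and 5mC only, so that the cluster and this gene made a run of 11 neighbouring listed genes with the same marks.

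The domains under the cluster had the highest scores of their lists. The authors' lists give a whole-number score for each domain, without a label, and it was used only within a list, divided by domain length. The H3K27me1 domain (2339551 to 2353500, 13950 bp) had a score of 7595 per kb, 30.4 times the list median of 250.0, and ranked 1 of 56694 in score per kb, in score and in length. The 5mC domain (2339401 to 2353500, 14100 bp) had 13135 per kb, 19.5 times the list median of 673, and ranked 1 of 61122 in score per kb and in score and 4 in length. The limits of the cluster are those of this domain, which was located as the 5mC domain of highest score. Its rank in score is therefore a description and not a finding. H3K27me1 score, 5mC score and the mRNA coverage of most cluster genes were therefore all high over the same stretch. The lists hold no input values, and what part input signal has in these scores was not tested.

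Some H3K27me1 domains past the end of the cluster also had high scores. In the next 80 kb there were 14 H3K27me1 domains. The first lay at 2356351 to 2356650 with 2303 per kb, rank 14 of the list. The next lay at 2367601 to 2368650 with 1226 per kb, rank 82. The domain under Aa_G400860 (2420251 to 2421000) had 1984 per kb, rank 25. Of the domains between the second and the last of these, 1 had 978 per kb (2372101 to 2372700) and the others 219 to 558 per kb. The median over the 14 domains was 307 per kb, above the list median of 250 and below the 90th percentile of the list, 347. The 22 5mC domains of the same stretch had a median of 657 per kb, below the list median, with a highest value of 1933 per kb. On the other side, the 3 H3K27me1 domains in the 4 kb before the cluster had 208 to 297 per kb. These 2 stretches are of unlike length, so the sides cannot be compared. Further before the cluster, a listed gene (2315820 to 2319431) had 3612 bp inside H3K27me1 and 3331 bp inside 5mC, with H3K4me3 as well. The scores of the domains over it were not examined.

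Outside the cluster, the genes with H3K27me1 and 5mC only had almost no mRNA signal. Coverage was exactly 1, the lowest value listed, in 123 of 235 genes, 52.3% (45.7% to 58.9%), against 8.86% of all listed genes. The median was 1 with an upper quartile of 1.85, against a median of 5.77 for all. On the log2(coverage + 1) scale the median lay 1.76 below that of all listed genes, a difference of -1.76. Since most of these genes sit at the lowest listed value, this difference is set by that floor. Among the 112 genes above 1 the median was 1.91, with quartiles of 1.45 and 3.46. Only 21 of 235, 8.94% (5.62% to 13.3%), exceeded the median of all listed genes, where 50% do. Above 20 there were 5 genes and above 100 there was 1.

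**Figure D2:**
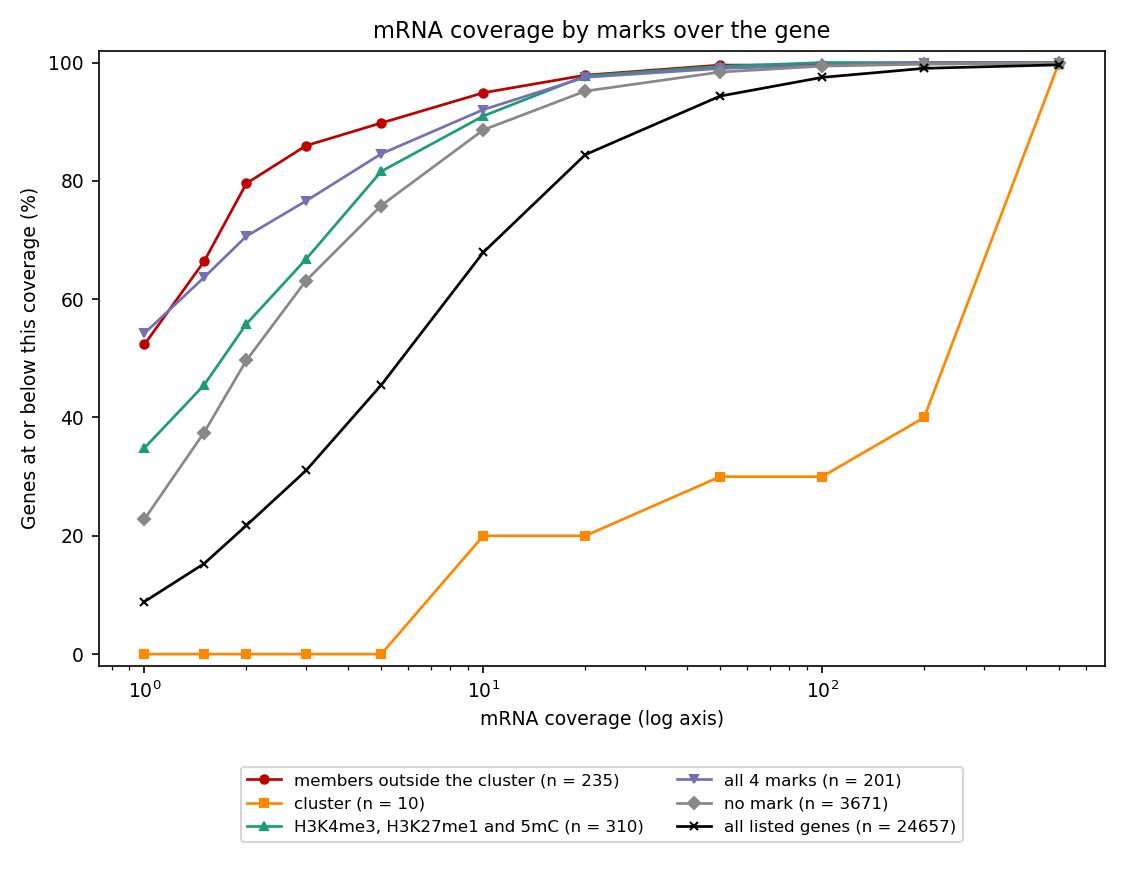
The lines give the percentage of genes (y axis) whose mRNA coverage is at or below fixed values from 1 to 500 (x axis, log), for genes grouped by the marks over them, with straight lines between the values. Of the genes outside the cluster 79.6% are at or below 2, against 21.8% of all listed genes, while the cluster starts only above 5.

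Genes of like marking gave the following values beside these. Among the 310 genes with H3K4me3 in addition to H3K27me1 and 5mC, 34.8% (29.5% to 40.4%) had a coverage of 1, and the median was 1.75. Among the 201 genes with all 4 marks 54.2% (47.1% to 61.3%) had a coverage of 1. The genes with H3K27me1 alone gave 33.6% (24.8% to 43.4%, n = 107), those with 5mC alone 31.7% (23.7% to 40.6%, n = 126), and those with none of the marks 22.8% (21.5% to 24.2%, n = 3671). At this overlap minimum the genes with H3K27me1 and 5mC only were thus nearest, among these classes, to those with all 4 marks. Genes with H3K27me3, H3K27me1 and 5mC but no H3K4me3 were not computed as a class. The order depended on the minimum. In another setting a mark had to cover 50% of the span and counted as absent below that. A coverage of 1 was then held by 60.0% of the genes with H3K27me1 and 5mC only outside the cluster, 245 under that rule. With H3K4me3 in addition it was then 71.4% (56.7% to 83.4%, n = 49), and with all 4 marks 86.4% (65.1% to 97.1%, n = 22).

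The genes of highest coverage outside the cluster differed in how far the marks filled them. The highest was Aa_G184140 (chromosome 8, 28398362 to 28399546), with a coverage of 127, 100% of its span inside H3K27me1 and 83.5% inside 5mC. The second was Aa_G450020 (chromosome 7, 15879612 to 15880266), with 42.7 and 100% of its span inside each mark. Next came a gene on scaff_57609_1 (36566 to 37557), which had 38.2 and was likewise nearly filled by both marks. These 3 genes were short, from 655 to 1185 bp. The next 2 were longer and mostly free of the marks. A gene on chromosome 6 (13121972 to 13127669) had a coverage of 36.1 with 21.1% of its span inside H3K27me1 and 31.6% inside 5mC. One on chromosome 4 (13136780 to 13138984) had 30.1, with 27.2% and 35.6%. The other 5 of the 10 highest had coverages of 13.6 to 16.1, among them Aa_G400860 beside the cluster.

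The 5 longest genes had coverages of 1 to 1.82, in the range that holds most of the 235. The longest, Aa_G35580 (scaff_48252_1, 239142 to 252596), spanned 13455 bp with a coverage of 1. Aa_G278650 (chromosome 8, 35829923 to 35841687), 11765 bp long, also had a coverage of 1. The other 3 had coverages of 1, 1.35 and 1.82. Span and coverage had a Spearman's rho of -0.079 across the 235 genes, many of which share the lowest value. In all 5 longest genes H3K27me1 touched neither end and 5mC touched at most 1, where an end counted when at least 150 bp of its outermost 300 bp lay in domains.

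Spans outside the cluster ran from 220 to 13455 bp with a median of 2474 bp and quartiles of 1466 and 3903 bp, against a median of 2091 bp for all listed genes. The rule takes no gene under 200 bp and longer genes reach 200 bp of overlap more easily, so span is not independent of it. H3K27me1 lay over a median of 54.6% of the span (quartiles 29.1% and 87.9%) and 5mC over 66.7% (40.6% and 90.4%). Both marks filled at least 90% of the span in 35 genes, at least 50% but not 90% in 76, and in 124 at least 1 of them stayed under 50%. In 21 genes both were under 25%.

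**Figure D3:**
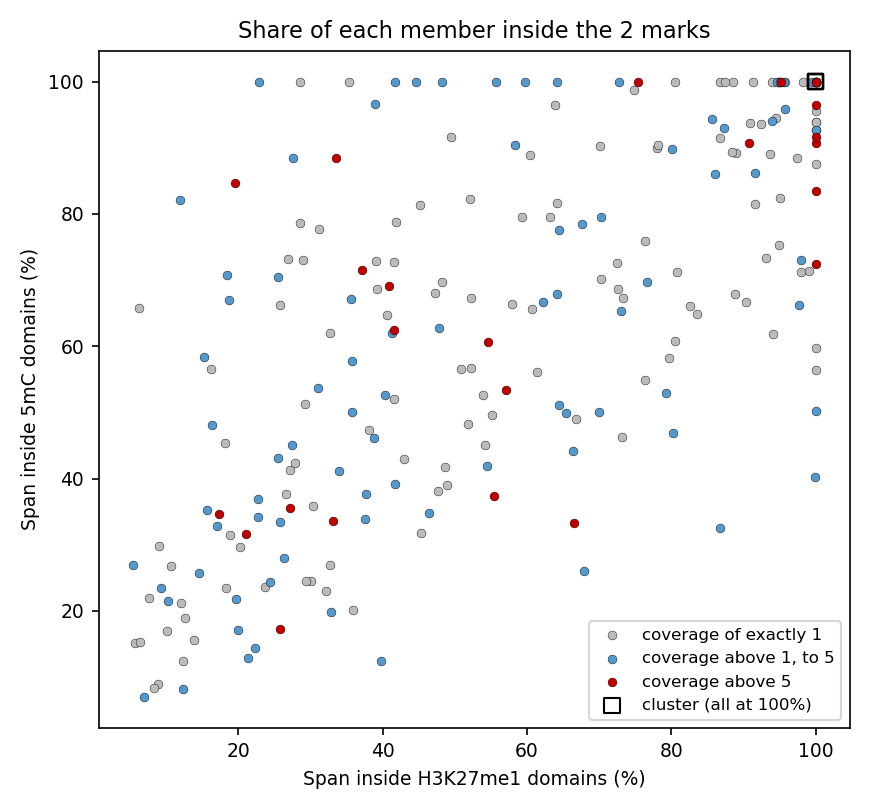
Each point is 1 gene, placed by the percentage of its span inside H3K27me1 domains (x axis) and inside 5mC domains (y axis) and coloured by mRNA coverage. Genes with a coverage above 5, in red, run from spans filled by both marks down to 17.3% for H3K27me1 and 17.2% for 5mC, and none of them has both marks under 25%. Cover of all the genes goes down to 5.4% and 7.0%.

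mRNA coverage outside the cluster did not follow the extent of the marks in one direction. A coverage of 1 was held by 45.7% (28.8% to 63.4%) of the 35 genes filled to at least 90%, by 64.5% (52.7% to 75.1%) of the 76 in the middle group and by 46.8% (37.8% to 55.9%) of the 124 with less. Of the 21 genes with both marks under 25%, 57.1% (34.0% to 78.2%) had a coverage of 1 and none exceeded the median of all listed genes. The intervals of these groups overlap, which does not show that the groups are alike, and no difference between them was tested. By position of the marks, among the 211 genes of at least 1 kb, H3K27me1 reached neither end in 72, 1 end in 79 and both ends in 60. A coverage of 1 was held by 45.8% (34.0% to 58.0%), 54.4% (42.8% to 65.7%) and 61.7% (48.2% to 73.9%) of them. For 5mC the 3 groups held 42, 91 and 78 genes and the shares were 42.9% (27.7% to 59.0%), 52.7% (42.0% to 63.3%) and 60.3% (48.5% to 71.2%). The shares went up with the number of marked ends for both marks. The intervals of the groups overlap, and this rise was not tested. Spans differed along with the number of marked ends, from a median of 4118 bp with 5mC at neither end to 2021.5 bp with 5mC at both.

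The domains over these genes had scores near the middle of their lists by the median, with a part well above it. The score per kb over a gene, averaged over its domains by overlapping bp, had a median of 263 for H3K27me1 and of 716 for 5mC, 1.05 and 1.06 times the medians of the lists. Among all listed genes with at least 200 bp of the mark the medians were near these, 259 for H3K27me1 and 759 for 5mC. The 90th percentile of the list, 347 per kb for H3K27me1 and 1210 per kb for 5mC, was exceeded by 76 and 37 of the 235 genes, which is 32.3% and 15.7%. That percentile is taken over single domains, and the share of all listed genes with the mark that exceed it was not computed. A group of 8 genes stood at 4 times the H3K27me1 list median or more, a limit chosen after the values were seen. Of these 8, 5 exceeded the median coverage of all listed genes, against 16 of the other 227. Among all listed genes 50% exceed it. The 8 genes were also short, with a median span of 949 bp against 2513 bp for the other 227. Among the 235, the median coverage of all listed genes was exceeded by 6 of the 24 genes under 1 kb. Among the 211 of at least 1 kb it was exceeded by 15. Whether score goes with mRNA apart from span was not tested. The 5 genes include Aa_G184140 at 10.3 times the list median, Aa_G400860 at 7.94 times and the gene on scaff_57609_1 at 6.78 times. The remaining 3 of the 8 had coverages of 1, 1 and 1.69, so a high score did not always go with mRNA. One of those, Aa_G412730 (chromosome 3, 878861 to 882945), had the highest 5mC score per kb of the 235 genes, 8.47 times the list median, with a coverage of 1.69.

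**Figure D4:**
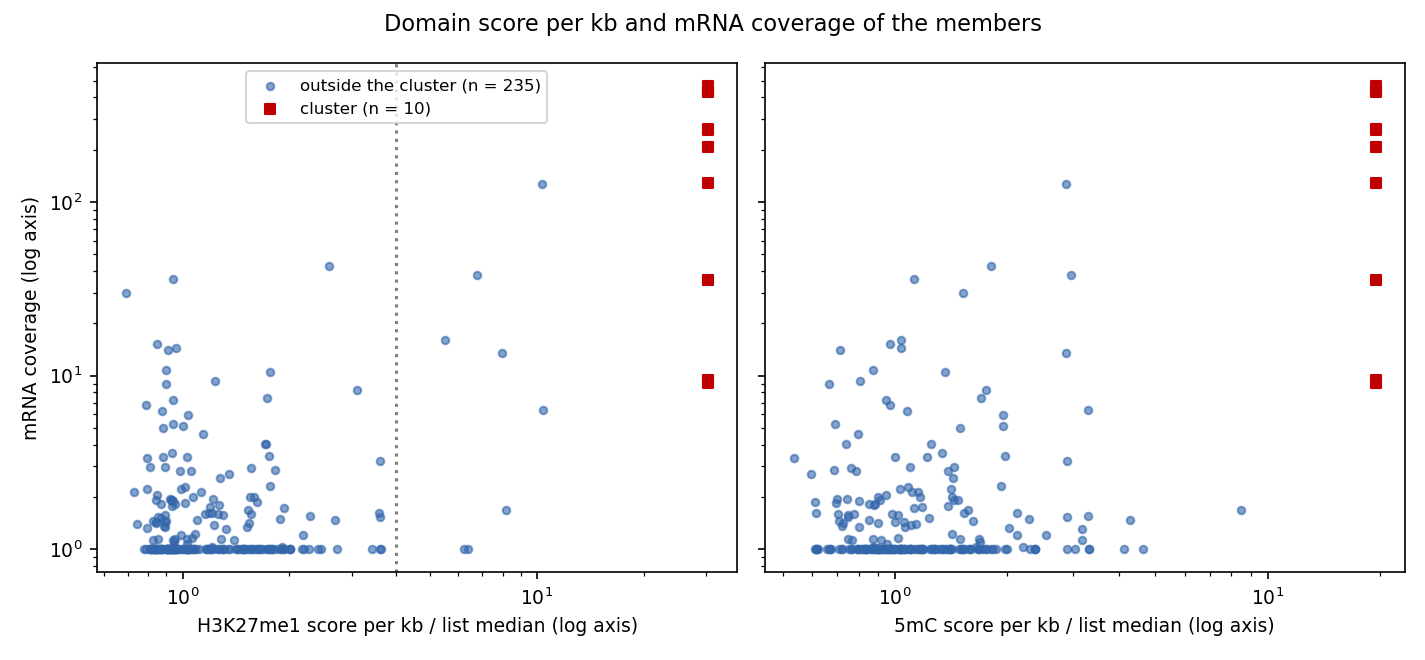
Each point is 1 gene, with the score per kb of its H3K27me1 domains (left) or 5mC domains (right) relative to the list median (x axis, log) and its mRNA coverage (y axis, log). The cluster genes, in red, share 1 domain of each mark and stand at 30.4 and 19.5 times the medians, and the dotted line marks 4 times the H3K27me1 median.

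Over all 235 genes the rank of the score and that of coverage had almost no relation. Spearman's rho with mRNA coverage was -0.0048 for H3K27me1 score per kb and 0.028 for 5mC score per kb, and rho between the 2 scores was 0.42. Neighbouring genes can share a domain, and 123 values are tied at 1, so these are descriptions only. Of the 10 H3K27me1 domains with the highest score per kb in the whole list, 4 touched a listed gene. They were the cluster domain, the domain of Aa_G184140, that of Aa_G66960 (chromosome 2, 8530241 to 8531541, coverage 6.31) and that of Aa_G228920, a gene with H3K27me1 as its only mark, whose coverage was 166. Of the 10 highest 5mC domains only the cluster domain touched a listed gene.

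The marks mostly lay over the same bases within these spans. The rule did not ask for it, but where both marks fill most of a span they have to overlap, and the overlap that width alone gives was not computed. Outside the cluster 269170 bp of gene span lay inside both marks, which is 79.1% of their H3K27me1 cover and 69.2% of their 5mC cover. In 130 of 235 genes the narrower mark lay wholly inside the other, and in 11 the marks shared no bp. 5mC was the wider mark in 133 genes, H3K27me1 in 78, and both covered the same number of bp in 24. Of all 828 listed genes with both marks, the cluster and these genes included, 364 had the narrower mark wholly inside the other and 27 had no shared bp. The shared part of their cover was 76.6% for H3K27me1 and 71.8% for 5mC. Genes with H3K4me3 in addition gave like shares, 76.0% for H3K27me1 and 68.5% for 5mC. This was also near the overlap in genes with all 4 marks, 76.2% and 78.0%.

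The genes were spread over all 8 chromosomes and were most frequent on unplaced scaffolds. Scaffolds held 60 of the 235 genes, 25.5% (20.1% to 31.6%), against 9.82% of all listed genes. For genes with none of the marks the share was 30.3% (28.8% to 31.8%), which is higher still. Per 1000 listed genes there were 24.8 on scaffolds. On chromosomes the number ran from 4.87 per 1000 on chromosome 4 to 12.3 on chromosome 2 with the cluster left out, and chromosome 6 had 11.8. The scaffold genes lay on 52 scaffolds, 46 of which had only 1. Coverage was much the same in both places, with 53.3% (40.0% to 66.3%) at 1 on scaffolds and 52.0% (44.3% to 59.6%) on chromosomes.

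On chromosomes the surroundings were poorer in genes than usual. Within 100 kb on either side there was a median of 15 other listed genes (quartiles 10 and 24), against 22 (16 and 29) for all listed genes on chromosomes. With scaffold genes included, the distance to the nearest listed gene on the same sequence had a median of 1911 bp, against 703 bp for all listed genes. Scaffolds held 25.5% of the former and 9.82% of the latter, and this distance was not computed for chromosomes alone. Genes with H3K4me3, H3K27me1 and 5mC had the same median of 15 and a distance of 2964 bp. No other listed gene was on the same sequence for 21 of 235, 8.94%, against 5.05% of all. Only scaffold genes can be alone in this way, 21 of the 60 here and 1246 of the 2422 listed genes on scaffolds. Among scaffold genes it was thus less frequent here than in general. Overlap with another listed gene was found in 4 of 235, 1.70%, against 0.929% of all.

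Most of the genes were single. With the cluster left out, 204 genes had no neighbouring listed gene of the same kind, 22 lay in pairs and 9 in 3 runs of 3. The run on chromosome 2 holds Aa_G366550 (22211874 to 22213587) with a coverage of 3.23 and Aa_G366560 (22214301 to 22215587) with a coverage of 1, both wholly inside the 2 marks, followed by a gene at 1.53 whose span overlaps that of Aa_G366560. Coverages in the run on chromosome 6 (22637064 to 22655210) were 1, 3.34 and 1.72, and those on scaff_67696_1 (151546 to 162291) were 1.83, 1.35 and 1.45. None of these 3 runs had coverage near that of the cluster, and none reached the median of all listed genes.

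Listed genes next to these genes had mRNA coverage and H3K4me3 near those of listed genes in general. The 362 neighbours without this combination of marks had a median coverage of 5.16 (quartiles 2.19 and 12.4), and 8.56% were at 1, against 8.86% of all listed genes. H3K4me3 was on 77.1% of them, against 76.2% of all. H3K27me3 was on 14.4% (13.1% of all). H3K27me1 was on 8.01% and 5mC on 10.8%, against 4.6% and 5.41% of all listed genes.

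The marks themselves ran on beside the genes. H3K27me1 lay over at least 200 bp of the 2 kb flanks, counting both sides, in 68.9% (62.6% to 74.8%) of the 235 genes, against 18.9% of all listed genes. 5mC did so in 81.3% (75.7% to 86.1%), against 31.5%. A domain over a gene can run into its flank, so these shares are not independent of the rule. H3K4me3 was in the flanks of 37.9% (31.6% to 44.4%), against 48.3% of all, and H3K27me3 in those of 14.0% (9.87% to 19.2%), against 22.0%. Flanks can run past the end of a scaffold, where no domain can lie. Scaffolds held 25.5% of these genes and 9.82% of all, and flank shares on chromosomes alone were not computed. Genes with none of the marks had H3K4me3 in the flanks in 39.4% (37.8% to 41.0%) and H3K27me3 in 13.2% (12.1% to 14.3%), both inside the intervals above. mRNA differed little with it: a coverage of 1 was held by 50.6% (39.8% to 61.3%) of the 89 genes with H3K4me3 in the flanks and 53.4% (45.0% to 61.7%) of the 146 without.

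**Figure D5:**
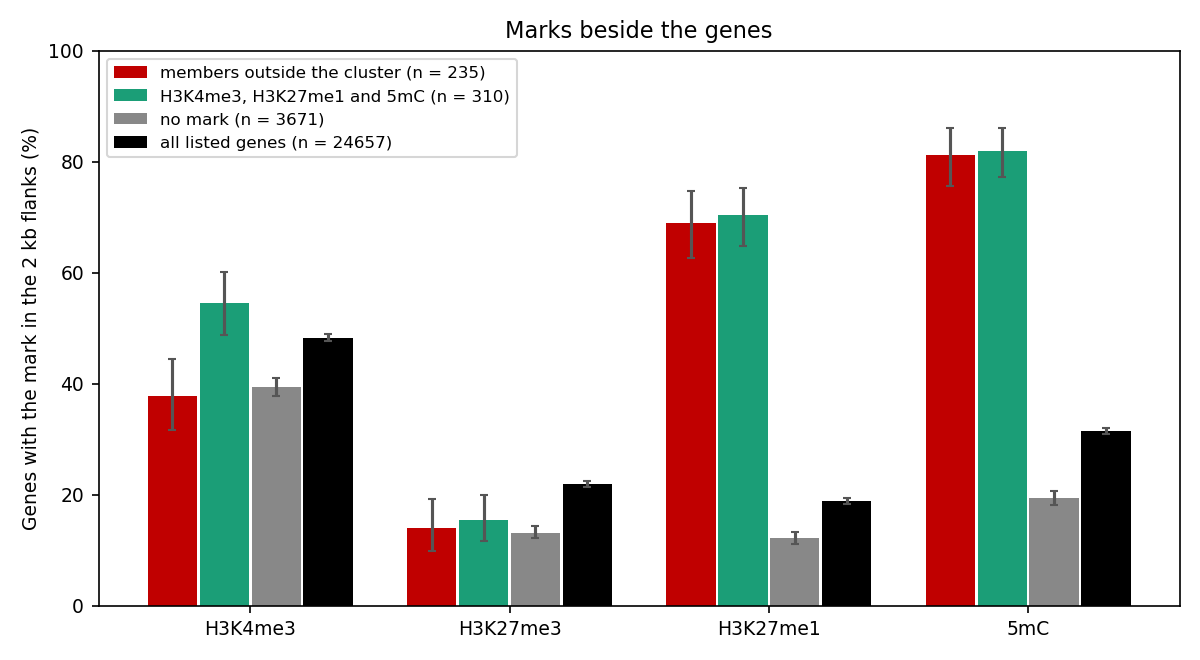
Bars give the percentage of genes with each mark over at least 200 bp of the 2 kb on either side, for 4 gene groups, with exact 95% binomial intervals. H3K27me1 and 5mC are beside 68.9% and 81.3% of the genes outside the cluster, close to the 70.3% and 81.9% of genes with H3K4me3 in addition.

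Some genes sat near the limits of the rule. Outside the cluster 21 of 235 had 300 bp or less of H3K27me1 or of 5mC, and 13 had 100 bp or more of H3K4me3. In all, 216 of 235 had no bp of H3K4me3 or H3K27me3, 18 had some H3K4me3 and 1 some H3K27me3. Just inside the limit for H3K4me3 were Aa_G498040 with 174 bp (coverage 14.1) and Aa_G66670 with 165 bp (10.8), and just outside it were Aa_G283260 with 208 bp (1) and Aa_G300920 with 227 bp (2.92). For H3K27me3 the gene just inside had 134 bp, the next had 0, and those just outside had 300 bp each, with coverages of 1.71 and 1.12. For H3K27me1 the nearest inside were Aa_G285510, which is 220 bp long and wholly marked (coverage 16.1), and a gene with 225 bp (1.92). Just outside, the overlaps were 163 and 150 bp and the coverages 8.20 and 1. For 5mC the values inside were 220 bp, again Aa_G285510, and 235 bp (coverage 1.41), and those outside were 162 and 161 bp (2.42 and 2.55).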

How the data were processed

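The authors deposited 1 domain list per mark, with a whole-number score per domain, and 1 table of mRNA coverage, a signal per gene with gene start and end. The submitters' processing notes name the aligner Bowtie and the domain caller SICER. Their versions and parameters, the genome build and how the 2 replicates were combined were not given in the sources used here. Depth per library is unknown. The labels do not say whether replicates came from separate plants.

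Domain starts were read as 0-based and ends as inclusive. Overlap in bp was computed with Python 3.11.15 and pandas 2.3.3, and exact binomial (Clopper-Pearson) intervals with scipy 1.17.1. The overlap code was checked against base-by-base counting. No test across genes was run, since genes are not replicates.

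Members and lists were chosen with earlier results of these data known. Named genes are all cluster genes and, elsewhere, at most 2 identifiers per set: the 10 of highest coverage, the 5 longest, the runs, those nearest each limit, and the neighbours of the cluster. Aa_G66960, Aa_G228920 and Aa_G412730 were named after their values were seen. Function groups could not be formed without names.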

Additional observations from a re-analysis of the deposited data

How the results depend on the processing

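Of 76 alternative values, 53 stayed within the interval of the main value (or within 1.5 times a main count), 23 moved outside it and 0 reversed. A reversal was looked for only in the sign of the log2 difference, so the 0 says nothing about the other values. The order of the gene classes did change with the overlap minimum, and this was not counted as a reversal. The cluster kept 10 genes and the median coverage outside it stayed at 1 under every alternative that changed the rule, the lists or the sequences used. With a mark required over 50% of the span, 60.0% of the genes were at a coverage of 1, the median span was 3145 bp and 32.7% lay on scaffolds. At that minimum a coverage of 1 was held by 71.4% of genes with H3K4me3, H3K27me1 and 5mC, 86.4% with all 4 marks, 49.3% with H3K27me1 alone and 7.66% with no mark. A mark over less than 50% of the span then counted as absent. The class with no mark thereby went from 3671 to 17084 genes, so its 2 shares belong to different sets of genes. The upper 50% of each list by score gave a median span of 2994 bp. The upper 50% of H3K27me1 and 5mC by score per kb left 118 genes, 33.1% of them on scaffolds. On the 8 chromosomes alone the log2 difference from the listed genes there was -1.81. With a pseudocount of 0.1 the difference from all listed genes was -2.42. Among genes above 1, whose median coverage was 1.91, the difference from the listed genes above 1 was -1.38. Flanks of 1 kb and 5 kb held H3K4me3 in 19.6% and 65.5% of genes, H3K27me3 in 6.81% and 34.0%, H3K27me1 in 54.5% and 84.7%, and 5mC in 71.1% and 92.3%, a wider flank holding more by construction. Against all listed genes, scaffold genes included, these genes stayed lower for H3K4me3 and H3K27me3 and higher for H3K27me1 and 5mC at each width. Leaving out the 8 genes of high H3K27me1 score, chosen after seeing the data, gave 7.05% above the median of all listed genes. No paired analysis was possible because the lists are not split by replicate and mRNA has 1 library, and leaving out a replicate was not run for the same reason. The other causes of these moves were not tested, and the unknown depth limits what a coverage of 1 can show.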

Other observations

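The identifiers of the cluster ran without a gap from Aa_G288900 to Aa_G288990 in steps of 10, in order of position. They do not continue those around them. The listed genes before the cluster count down to Aa_G592990, and the gene after it is Aa_G400860. The listed genes nearest in number were Aa_G288790 on chromosome 4 (8032995 to 8033844, coverage 1) and Aa_G289260 on chromosome 6 (15176493 to 15177907, coverage 13.4), on other chromosomes than the cluster.

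The stretch of 3116 bp between Aa_G288950 and Aa_G288960 (2345417 to 2348532) held no listed gene, although it lay inside the same H3K27me1 and 5mC domains as the genes on both sides. The domain lists give 1 score per domain, so how the scores are spread within the cluster cannot be read from them.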
